A study of Mus musculus with 9 samples.

Results

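MHC class II antigen presentation genes were followed in the trigeminal ganglion (TG) of mice after an injection into the temporomandibular joint (TMJ), the jaw joint that TG sensory neurons innervate. The set held 7 genes, chosen by name, out of 16110 gene sums tested: the class II chain genes H2-Aa, H2-Ab1 and H2-Eb1, the invariant chain gene Cd74, the transactivator Ciita, and the peptide-exchange genes H2-DMa and H2-DMb1. Levels are FPKM, a count of fragments divided by transcript length and library depth, and were summed over the GENCODE M21 transcripts of each gene. All 7 genes were measured and passed the minimum mean of 0.1 FPKM, with 37 of their 41 annotated transcripts above 0 in at least 1 library.

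The animals were male wild-type C57BL/6 mice of 8 weeks, and each library was made from unilateral TG tissue pooled from 3 mice. Complete Freund's adjuvant (CFA, mineral oil with killed mycobacteria, which inflames the joint) was given as 10 µl at 5 mg/ml, and the TG was taken on day 3 (CFA3D, n = 3 libraries) or day 6 (CFA6D, n = 3). The control group received 10 µl of saline and is labelled day 3 (saline, n = 3). Both CFA groups were therefore compared with the same 3 saline libraries, and for CFA6D the extra 3 days and the adjuvant cannot be told apart.

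Class II molecules display peptides from endocytosed proteins to CD4+ T cells. An alpha and a beta chain assemble around the invariant chain, which fills the peptide groove until endosomal proteases trim it and the DM heterodimer exchanges the remnant for antigenic peptide. Dendritic cells, B cells and macrophages carry most class II, and in sensory ganglia it is known from resident macrophages around the neurons. CIITA is the master regulator: it binds no DNA itself but joins the RFX, CREB and NF-Y factors that sit on a conserved promoter module, in which NF-Y occupies the Y box with its core letters ATTGG.

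The promoter module is shown because it is what the members are known to share. RefSeq promoters, 250 bases before to 50 after each annotated start, were matched for 4 of the 7 genes (H2-Aa, H2-Eb1, H2-DMa and H2-DMb1) on GRCm38.p6. The letters GATTGG, a longer Y box core that contains ATTGG, and AGCAAC, letters of the upstream X box, were searched on both strands. A word of 13 bases, the longest run that the H2-Eb1 and H2-DMb1 promoters share, was found after the sequences were seen. The stretches below run 5′ to 3′ on the gene's strand, and capitals mark GATTGG or its reverse complement, AGCAAC and the shared word.
H2-Aa, chr17:34287844-34287933, minus strand, 110 to 21 bases before the start: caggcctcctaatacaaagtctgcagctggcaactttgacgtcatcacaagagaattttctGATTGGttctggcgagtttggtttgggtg
H2-Eb1, chr17:34305757-34305846, plus strand, 110 to 21 bases before the start: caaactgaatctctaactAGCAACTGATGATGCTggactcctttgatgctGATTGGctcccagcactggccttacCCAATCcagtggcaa
H2-DMb1, chr17:34153099-34153128, plus strand, 92 to 63 bases before the start, with GATTGG beginning at the next base: AACTGATGATGCTaggctgattcactcagt

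GATTGG began 49 bases before the RefSeq start in H2-Aa, 60 before it in H2-Eb1 and 62 before it in H2-DMb1. The main GENCODE M21 transcript of H2-DMb1, ENSMUST00000114232, begins at base 34153072, ahead of the stretch shown. By that annotation the H2-DMb1 stretch lies downstream of the start, and the 2 annotations were not reconciled. In H2-Eb1 its reverse complement followed at 35 bases before the start. The shared word stood 29 bases ahead of GATTGG in H2-Eb1 and 30 bases ahead in H2-DMb1, counted from first base to first base, and in H2-Eb1 it overlapped AGCAAC. H2-DMa had 2 RefSeq starts, of which only the downstream one held GATTGG, 199 bases before it. The H2-DMa transcript with the largest share of the gene sum, ENSMUST00000236322, begins at base 34135628, downstream of both. The bases ahead of that start were not searched, so a Y box there was not looked for. Over all 32851 promoters in the table, GATTGG was found in 16.1%, ATTGG in 37.4%, AGCAAC in 14.8% and the 13-base word in 3 promoters, the third being that of the zinc transporter gene Slc39a10, on the other strand. A match is a description of letters and not a measured binding site.

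Among the libraries, depth was about 30400000 to 42700000 read pairs as read from the smallest FPKM steps, and lowest in saline replicates 1 and 2. It estimates the fragments behind the FPKM values, and the paper reports more reads sequenced. By this estimate, the 7 genes rested on roughly 203 read pairs (Ciita) to 3775 read pairs (Cd74) in a library. A pair of libraries stood apart on principal components of all tested gene sums: CFA6D replicate 6 on the first, which held 29.0% of the variance, and saline replicate 3 on the second, which held 18.4%. CFA6D replicate 6 carried 2490 FPKM of 7 neutrophil markers, against 22.0 to 125 FPKM in the other 8 libraries, and saline replicate 3 carried 10611 FPKM of 5 pituitary hormone genes, which summed to 1114 FPKM in CFA6D replicate 4, 403 FPKM in CFA6D replicate 5 and 8.89 to 99.7 FPKM in the rest. Skeletal muscle markers were highest in saline replicate 2, at 136 FPKM, and CFA6D replicate 6, at 60.3 FPKM, against 1.11 to 30.4 FPKM elsewhere. Markers of neurons, satellite glia and Schwann cells were high in every library, as the TG label implies, with 1613 to 2387 FPKM over 8 neuron markers.

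Class II transcripts were abundant in the TG already after saline. Cd74 encodes the invariant chain (chromosome 18, 60803848 to 60812652, plus strand) and its gene sum ranked 819 of all tested gene sums by mean level. Its levels were 60.2, 40.6 and 43.1 FPKM in the saline libraries, 56.1, 77.0 and 37.9 FPKM on CFA3D, and 32.3, 31.6 and 40.9 FPKM on CFA6D. The CFA3D libraries thus spanned the saline range on both sides, and 2 of the 3 CFA6D libraries lay below it. H2-Aa encodes the alpha chain of the I-A molecule (chromosome 17, 34282744 to 34287823, minus strand). It measured 42.0, 33.8 and 33.7 FPKM after saline, 45.8, 66.0 and 31.4 FPKM on CFA3D, and 22.8, 23.8 and 27.7 FPKM on CFA6D. Every CFA6D library was below every saline and every CFA3D library.

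The beta chains showed the same order of groups. H2-Ab1 encodes the I-A beta chain (chromosome 17, 34257689 to 34269419, plus strand) and measured 24.6, 23.9 and 27.6 FPKM after saline, 31.1, 42.2 and 17.9 FPKM on CFA3D, and 18.9, 15.0 and 23.0 FPKM on CFA6D. H2-Eb1 encodes the I-E beta chain (chromosome 17, 34305867 to 34316674, plus strand) and measured 21.2, 13.7 and 11.8 FPKM after saline, 20.1, 29.9 and 10.9 FPKM on CFA3D, and 11.4, 9.20 and 10.3 FPKM on CFA6D. For both, the CFA6D libraries lay wholly below the saline libraries, and CFA3D replicate 3 lay within the CFA6D range. C57BL/6 mice carry no functional I-E alpha gene, and the pseudogene H2-Ea-ps did not exceed 0.025 FPKM in any library.

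Ciita and the DM genes were lower in level, and their groups were not separated. Ciita (chromosome 16, 10480059 to 10528418, plus strand) measured 2.44, 2.35 and 2.37 FPKM after saline, 2.64, 3.75 and 1.90 FPKM on CFA3D, and 2.08, 2.005 and 2.81 FPKM on CFA6D. H2-DMa, the DM alpha chain gene (chromosome 17, 34119541 to 34139101, plus strand), measured 11.9, 8.99 and 10.0 FPKM after saline, 11.8, 14.6 and 10.6 FPKM on CFA3D, and 11.97, 13.5 and 11.4 FPKM on CFA6D. Transcripts annotated as coding made up 60.3% to 69.1% of the H2-DMa sum. H2-DMb1, a DM beta chain gene (chromosome 17, 34153072 to 34160230, plus strand), measured 6.74, 6.14 and 5.26 FPKM after saline, 6.03, 8.36 and 4.73 FPKM on CFA3D, and 4.97, 6.15 and 4.76 FPKM on CFA6D. In each of these 3 genes all group ranges overlapped. CFA3D replicate 2 was the highest of the 9 libraries for every member.

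**Figure D1:**
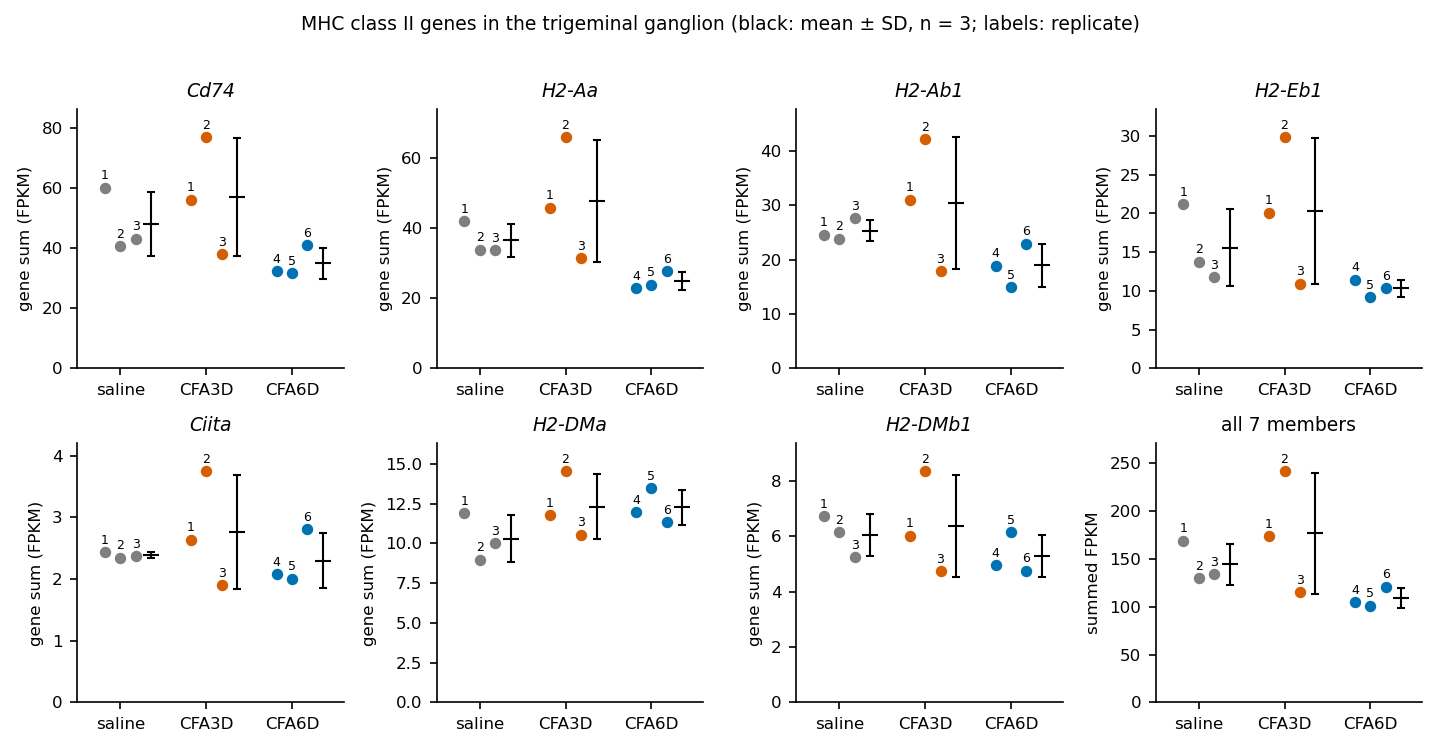
Gene sums of the 7 members (vertical axes, FPKM from 0) in each of the 9 libraries, with the summed level in the last panel. Points are libraries labelled by replicate, and black bars give the mean ± SD of 3 libraries. CFA3D replicate 2 is the highest point in every panel, and the CFA6D points of H2-Aa, H2-Ab1 and H2-Eb1 all lie below the saline points.

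On CFA3D against saline, no member was called. A call required both an unadjusted limma p below 0.05 on log2(FPKM + 0.1) and a fold change whose log2 size reached 1, and 0.341% of all gene sums met it. All 7 log2 fold changes were above 0, from 0.04 for H2-DMb1 to 0.33 for H2-Aa, with a median of 0.21 against 0.05 over all tested gene sums. None had an unadjusted p under 0.05, where 4.45% of all gene sums did, and the adjusted p (limma, Benjamini-Hochberg over all gene sums) was 0.997 for each. The 95% intervals reached from -0.34 to 0.76 for Cd74 and from -0.37 to 0.67 for Ciita, so a change of 1 on the log2 scale lay outside them, while that of H2-Eb1 ran to 1.06.

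The CFA3D values of the members other than H2-DMa rested on single libraries. Without CFA3D replicate 2 the log2 fold changes were -0.03 for Cd74, 0.06 for H2-Aa, -0.10 for H2-Ab1, -0.02 for H2-Eb1, -0.08 for Ciita and -0.17 for H2-DMb1. H2-DMa was at 0.12 then, and stayed between 0.12 and 0.36 with each of the 9 libraries left out in turn. Without CFA3D replicate 3, the lowest of its group for all 7 genes, they were 0.48 for Cd74, 0.60 for H2-Aa, 0.52 for H2-Ab1 and 0.70 for H2-Eb1, and 5 of the 7 members were then higher at an unadjusted p under 0.05, where 3.6% of all gene sums were. The members' sum was 174 FPKM in CFA3D replicate 1, 242 FPKM in replicate 2 and 115 FPKM in replicate 3, a wider spread than the 130 to 169 FPKM of the saline libraries.

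On CFA6D against saline, the chain genes and Cd74 had log2 fold changes below 0 and H2-DMa had one above 0, without a call. Calls were made for 0 of the 7 members and for 0.596% of all gene sums. The log2 fold change was -0.55 for H2-Aa (SE 0.23, 95% interval -1.06 to -0.04, unadjusted p 0.0370, limma adjusted p 0.413), -0.55 for H2-Eb1, -0.44 for H2-Ab1 and -0.44 for Cd74. H2-Aa was the 1 member with an unadjusted p under 0.05, where 2.85% of all gene sums were lower at that p. Ciita stood at -0.07, H2-DMb1 at -0.19 and H2-DMa at 0.25. The median of the members was -0.44, against 0.03 over all gene sums tested.

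H2-Aa, H2-Ab1 and H2-Eb1 were lower in all 3 CFA6D libraries than in all 3 saline libraries, a separation found for 5.49% of all gene sums. With 3 libraries against 3, an exact permutation test of a single gene cannot go below a two-sided p of 0.1. H2-Aa lost its unadjusted p under 0.05 without saline replicate 1 (log2 fold change -0.45), without saline replicate 2 (-0.60), without saline replicate 3 (-0.61), without CFA3D replicate 1 (-0.55), without CFA6D replicate 4 (-0.50) and without CFA6D replicate 5 (-0.53). Without saline replicate 3 and CFA6D replicate 6 together, the values were -0.69 for H2-Aa, -0.63 for Cd74, -0.52 for H2-Ab1 and -0.73 for H2-Eb1.

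The difference between both CFA groups was wider. From CFA3D to CFA6D the log2 fold change was -0.88 for H2-Aa (SE 0.23, 95% interval -1.39 to -0.37, unadjusted p 0.0035, limma adjusted p 0.581), -0.86 for H2-Eb1 (unadjusted p 0.0285, limma adjusted p 0.642), -0.66 for Cd74 (unadjusted p 0.0246, limma adjusted p 0.642) and -0.61 for H2-Ab1 (unadjusted p 0.0499, limma adjusted p 0.670). No member reached the fold size of a call, where 0.782% of all gene sums were called. These 4 of 7 members were lower at an unadjusted p under 0.05, where 4.34% of all gene sums were, and all of them failed the adjustment. Ciita (-0.22), H2-DMb1 (-0.23) and H2-DMa (0.01) did not pass either criterion.

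The number of members past an unadjusted p of 0.05 dropped to 1, H2-Aa, when CFA3D replicate 1, CFA3D replicate 2 or CFA6D replicate 5 was left out, and to 2, H2-Aa and H2-Eb1, without CFA6D replicate 4. Without CFA3D replicate 2 the log2 fold change was -0.62 for H2-Aa (unadjusted p 0.00711, limma) and -0.41 for Cd74. Without CFA3D replicate 3 it was -1.15 for H2-Aa and -1.24 for H2-Eb1, and both were then called, where 0.676% of all gene sums were. H2-Aa was lower in all 3 CFA6D libraries than in all 3 CFA3D libraries, as were 10.1% of all gene sums.

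**Figure D2:**
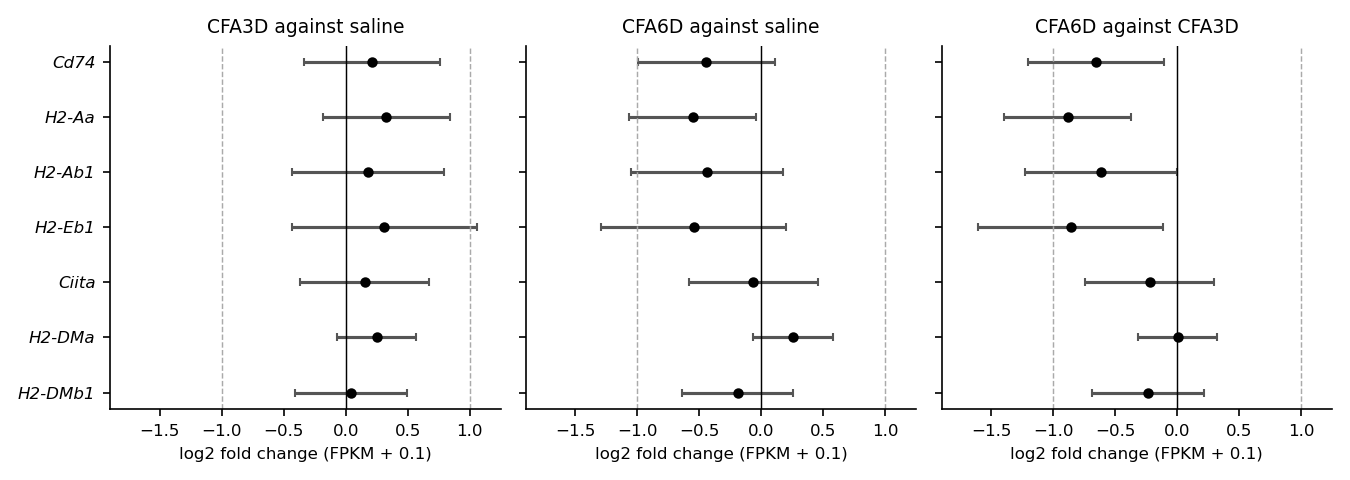
Log2 fold changes of the 7 members in the 3 comparisons on the log2(FPKM + 0.1) scale (horizontal axes), with 95% intervals from limma (n = 3 libraries a group). Dashed lines mark the fold size of a call. The intervals of all members include 0 on CFA3D, and those of Cd74, H2-Aa, H2-Ab1 and H2-Eb1 lie below 0 for CFA6D against CFA3D.

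The members varied together across libraries to different degrees. Over the 9 libraries, the log2 level of Cd74 was correlated with that of H2-Aa at Pearson r = 0.969 (exact permutation p 0.000132, adjusted over 6 relations 0.000794, Spearman rho 0.883, exact permutation p 0.00308). The other chain genes followed, with r = 0.952 for H2-Eb1 (exact permutation p 0.000526, adjusted 0.00158, rho 0.850, exact permutation p 0.00607) and r = 0.896 for H2-Ab1 (exact permutation p 0.00109, adjusted 0.00218, rho 0.917, exact permutation p 0.00131). For Ciita r was 0.826 (exact permutation p 0.00566, adjusted 0.00849, rho 0.833, exact permutation p 0.00827). Without CFA3D replicate 2 and saline replicate 1, the libraries farthest from the median of Cd74, r was 0.950 for H2-Aa, 0.848 for H2-Eb1, 0.910 for H2-Ab1 and 0.702 for Ciita.

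The DM genes gave lower values. H2-DMb1 had r = 0.746 with Cd74 (exact permutation p 0.0209, adjusted 0.02503, rho 0.483, exact permutation p 0.194), which became 0.204 without the same 2 libraries and so rested on them. H2-DMa had r = 0.346 (exact permutation p 0.362, adjusted 0.362, rho 0.10, exact permutation p 0.810) and -0.320 without them. These values mix differences between groups with variation inside them. With each group's mean removed over the same 9 libraries, a calculation added after seeing the data, r with Cd74 was 0.97 for H2-Aa (exact permutation within groups, p 0.0185, adjusted 0.0556), 0.916 for H2-Eb1 (p 0.0417, adjusted 0.0833) and 0.889 for Ciita (p 0.00463, adjusted 0.0278). It was 0.828 for H2-Ab1 (exact permutation within groups, p 0.0602), 0.704 for H2-DMb1 (p 0.148) and 0.739 for H2-DMa (p 0.0972), so 3 of the 6 relations kept an unadjusted p under 0.05 and 1, that of Ciita, an adjusted one. Of all tested gene sums except Cd74, 0.00621% correlated with Cd74 at least as strongly as H2-Aa did, which was H2-Aa itself. The shares, each counting the member itself, were 0.0310% for H2-Eb1, 0.273% for H2-Ab1, 1.59% for Ciita, 4.59% for H2-DMb1 and 35.2% for H2-DMa.

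Outside the set, 13178 gene sums averaged 1 FPKM or more. The 5 with the pattern most like Cd74 were Zfp146 (r = 0.969), Nme7 (0.960), Xbp1 (0.953), Itch (0.945) and Arhgef15 (0.944). They are given as a description only, over 9 libraries whose content of pituitary, neutrophil and muscle transcripts differed. Xbp1, a transcription factor of the unfolded protein response and of plasma cells, ran from 15.5 FPKM in CFA6D replicate 4 to 32.4 FPKM in CFA3D replicate 2. Itch, a ubiquitin ligase, varied much less, from 19.9 to 24.4 FPKM.

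Ratios among Cd74 and the chain genes varied less than their levels. The gene sum of Cd74 was 1.17 to 1.48 times that of H2-Aa over the 9 libraries, with a mean of 1.30 ± 0.118 (SD, n = 3) after saline, 1.20 ± 0.0300 on CFA3D and 1.41 ± 0.0776 on CFA6D. The CFA3D and CFA6D libraries did not overlap in this ratio. The gene sum of H2-Aa was 1.21 to 1.76 times that of H2-Ab1, of which 33.3% to 55.9% was retained-intron RNA. Between their main coding transcripts, for the alpha and beta chain of one molecule, the ratio was 1.73 to 3.09. It averaged 2.84 ± 0.221 (SD, n = 3) after saline, 2.41 ± 0.203 on CFA3D and 2.10 ± 0.546 on CFA6D. Every CFA3D library was below every saline library in this coding ratio, while the CFA6D range overlapped both. The H2-DMa gene sum holds noncoding transcripts too. Its ratio to that of H2-DMb1 was 1.71 ± 0.227 (SD, n = 3) after saline, 1.98 ± 0.245 on CFA3D and 2.33 ± 0.12 on CFA6D. The CFA6D libraries, at 2.41, 2.19 and 2.39, were all above the saline libraries, at 1.77, 1.46 and 1.91. How often ratios of other gene pairs separate the groups was not counted, for any of these ratios. Of the 50-base words of the main H2-DMb1 transcript, 27.2% also occur in H2-DMb2, so reads between these neighbours are uncertain, while the other 6 members shared none.

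Cd74 makes 2 main coding transcripts that use the same start. The shorter, ENSMUST00000050487, has 8 exons and a coding length of 645 bases and held 81.0% of the gene sum, and the longer, ENSMUST00000097563, has 9 exons and a coding length of 837 bases and held 14.0%. The additional exon of the longer form encodes a thyroglobulin-type domain, known to inhibit cathepsin L. The longer transcript measured 6.58, 7.64 and 5.66 FPKM after saline, 9.79, 9.76 and 7.30 FPKM on CFA3D, and 4.14, 3.43 and 4.44 FPKM on CFA6D. Its CFA6D libraries lay below all others, and 2 of the 3 CFA3D libraries lay above every saline library. Of all transcripts tested, 5.47% were lower in all CFA6D than in all saline libraries, and 6.84% lower in all CFA6D than in all CFA3D libraries.

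The longer Cd74 transcript was called lower on CFA6D against CFA3D, with a log2 fold change of -1.14 (SE 0.18, 95% interval -1.54 to -0.74, unadjusted p 0.000141, limma adjusted p over all transcripts 0.307). Against saline it was -0.71 on CFA6D (SE 0.18, unadjusted p 0.00316, limma adjusted p 0.469) and 0.43 on CFA3D (unadjusted p 0.0392, limma adjusted p 0.989). The shorter transcript had -0.59 on CFA6D against CFA3D (unadjusted p 0.0760), -0.40 on CFA6D and 0.19 on CFA3D. The call for the longer transcript stayed past its criterion with each of the 9 libraries left out in turn, with log2 fold changes from -1.28 to -1.03. With a pseudocount of 1 FPKM the value was -0.99, short of the fold size. As a share of both coding transcripts, the longer form took 15.1% ± 4.10 (SD, n = 3) after saline, 17.3% ± 3.87 on CFA3D and 12.2% ± 1.13 on CFA6D, and the groups overlapped except that 2 of the 3 CFA6D libraries lay below every other library.

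**Figure D3:**
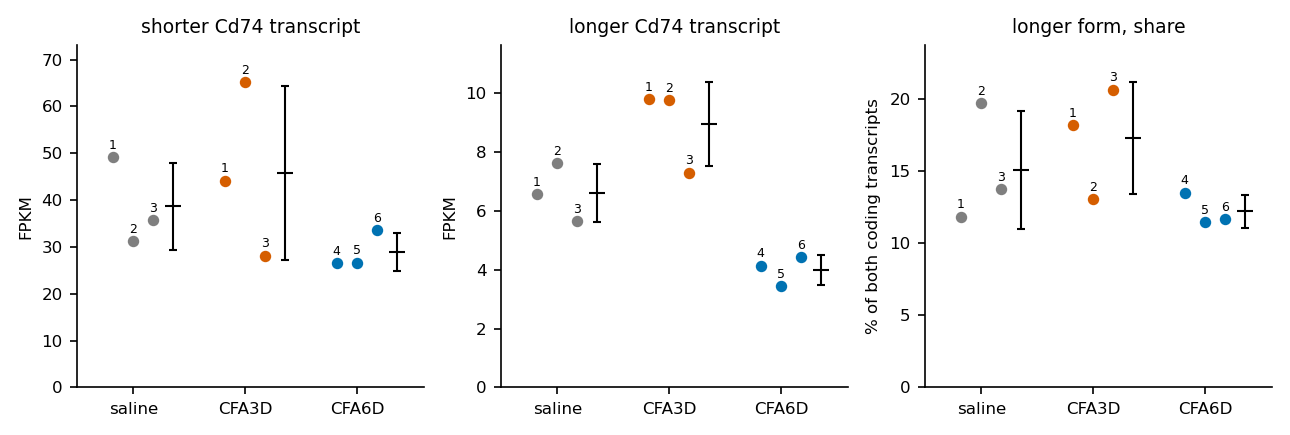
FPKM of the shorter and the longer coding Cd74 transcript and the longer one's share of both in percent, by library (points, labelled by replicate) with the mean ± SD of 3 libraries in black. The longer transcript lies between 3.43 and 4.44 FPKM in the CFA6D libraries and between 5.66 and 9.79 FPKM in all others.

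Of 33 member transcripts tested, 1 was called on CFA3D, 1 on CFA6D and 2 on CFA6D against CFA3D, where 2.19%, 2.57% and 2.23% of all 66562 transcripts were called. An unadjusted p under 0.05 was reached by 3, 4 and 5 of them, against 4.68%, 6.81% and 5.42% of all transcripts. None had a limma adjusted p under 0.05, which 0.0255%, 0.0195% and 0.015% of all transcripts had. The retained-intron transcript ENSMUST00000235980, 21.8% of the H2-Ab1 gene sum, was called lower on CFA6D against saline (log2 fold change -1.46, unadjusted p 0.0109, limma adjusted p 0.591), at 4.89, 9.23 and 12.2 FPKM after saline and 3.05, 1.82 and 4.48 FPKM on CFA6D. The H2-Ab1 coding transcript ENSMUST00000040828 measured 13.2, 12.1 and 12.2 FPKM after saline and 12.2, 8.50 and 14.4 FPKM on CFA6D, with ranges that overlapped. The 4 retained-intron transcripts of H2-Ab1 together measured 10.7, 11.8 and 15.4 FPKM after saline and 6.69, 6.49 and 8.55 FPKM on CFA6D, and these ranges did not overlap. How often such sums separate over all genes was not counted.

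The minor H2-Eb1 coding transcript ENSMUST00000074557, 2.72% of the gene sum, was called higher on CFA3D (log2 fold change 1.44, unadjusted p 0.0428, limma adjusted p 0.989), and its nonsense-mediated decay transcript ENSMUST00000236232 was called lower on CFA6D against CFA3D (-1.39, unadjusted p 0.0238, limma adjusted p 0.918). The main transcripts of 2 chain genes had log2 fold changes close to those of their gene sums: ENSMUST00000040655, with 97.0% of H2-Aa, was at -0.59 on CFA6D against saline and -0.92 against CFA3D, and ENSMUST00000235530, with 66.6% of H2-Eb1, was at -0.86 against CFA3D. In 2 other members they differed. The H2-Ab1 transcript ENSMUST00000040828 was at -0.12 on CFA6D against saline, where the gene sum was at -0.44, and the H2-DMa transcript ENSMUST00000236322 was at -0.29 on CFA3D, where the gene sum was at 0.25. In H2-DMb1, ENSMUST00000114232 held 94.7%. In H2-DMa, ENSMUST00000236322 held 48.5% and measured 1.83 FPKM in CFA3D replicate 1 against 4.93 to 8.48 FPKM elsewhere. ENSMUST00000042121, with the same coding length of 783 bases, measured 4.79 FPKM in that library against 0.608 to 1.08 FPKM elsewhere. The noncoding ENSMUST00000235910 (14.7%) and ENSMUST00000237476 (12.9%) end at bases 34135605 and 34135460, ahead of the start of ENSMUST00000236322. ENSMUST00000235910 was higher in all CFA3D and all CFA6D libraries than in all saline libraries, as were 5.79% and 6.70% of all transcripts. It was at 0.48 and 0.66 (unadjusted p 0.0925 and 0.0295, limma adjusted p 0.989 and 0.680), and ENSMUST00000237476 at -0.06 and -0.41.

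Ciita is known to be driven from several alternative first exons that differ between dendritic cells, B cells and interferon-treated cells. All 8 annotated Ciita transcripts were above 0 in at least 1 library, and their starts fell into 3 regions: bases 10480059 to 10480164, 10488178 to 10488279 and 10489746 to 10489783 of chromosome 16. The first region held 1.38 ± 0.132 FPKM (SD, n = 3) after saline, 1.19 ± 0.442 on CFA3D and 1.013 ± 0.245 on CFA6D. The third held 0.707 ± 0.0345 FPKM after saline, 0.724 ± 0.192 on CFA3D and 0.630 ± 0.199 on CFA6D. The second region varied most, at 0.272, 0.375 and 0.244 FPKM after saline, 0.356, 1.68 and 0.501 FPKM on CFA3D, and 0.223, 0.708 and 1.03 FPKM on CFA6D.

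That variation was a single transcript. ENSMUST00000023147, with 19 exons and a coding length of 3234 bases, was listed at 0 in all 3 saline libraries, in CFA3D replicate 1 and in CFA6D replicate 4, and at 1.47, 0.408, 0.522 and 0.830 FPKM in CFA3D replicates 2 and 3 and CFA6D replicates 5 and 6. The first-region transcript ENSMUST00000230395, with 19 exons and a coding length of 3465 bases, measured 0.867, 0.201, 0.348, 0.527 and 0.733 FPKM in the 5 libraries where the former was listed at 0, and 0.0494, 0.0276, 0.0334 and 0.0477 FPKM in the other 4. Where one full-length transcript was high the other was low, and the deposited values do not show how reads were divided between them. No Ciita transcript was called. The retained-intron transcript ENSMUST00000230533 held the most of the gene sum, 35.3%, and ran from 0.557 to 1.44 FPKM. ENSMUST00000230392 held 16.4%, ENSMUST00000230892 held 9.96% and ENSMUST00000229906 held 9.70%, while ENSMUST00000230146 was above 0 in 2 libraries and ENSMUST00000230450 in 1. Ciita overlaps the gene Dexi on the opposite strand over 25888 bases.

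**Figure D4:**
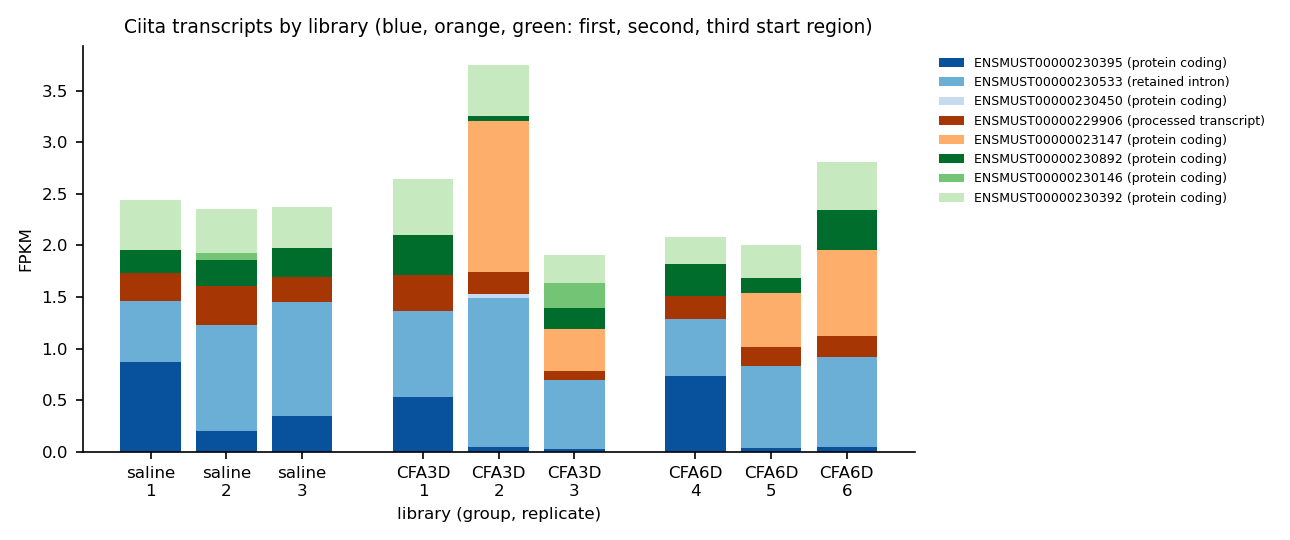
FPKM of the 8 Ciita transcripts (bar segments, stacked from 0) in each of the 9 libraries. Colours group transcripts by start region, and ENSMUST00000023147, the lighter orange segment, is seen in CFA3D replicates 2 and 3 and CFA6D replicates 5 and 6.

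The other genes of the pathway gave few calls. Of the 5 other subunit genes, 3 were tested and 1 was called: H2-DMb2, a second DM beta chain gene, was higher on CFA6D against CFA3D (log2 fold change 1.03, unadjusted p 0.0380, limma adjusted p 0.665). It measured 0.208, 0.569 and 0.223 FPKM on CFA3D, 0.445, 0.644 and 1.30 FPKM on CFA6D and 0.530, 0.538 and 0.293 FPKM after saline. Its main transcript, ENSMUST00000041982, was listed at 0 in CFA3D replicates 1 and 3. Of the 50-base words of that transcript, 31.3% also occur in other genes, H2-DMb1 among them, so the H2-DMb2 values are uncertain too. The DO chain genes H2-Oa and H2-Ob, whose product restrains DM and is typical of B cells, stayed at or below 0.775 FPKM in every library.

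Among 9 tested genes of peptide processing and surface turnover, none was called, and 2 were lower on CFA6D against CFA3D at an unadjusted p under 0.05. Ctss, the cathepsin that trims the invariant chain in antigen-presenting cells, was at -0.61 (unadjusted p 0.0373, limma adjusted p 0.665), with 17.1, 25.3 and 14.6 FPKM on CFA3D and 9.04, 11.5 and 16.9 FPKM on CFA6D. Lgmn, an asparaginyl endopeptidase, was at -0.24 (unadjusted p 0.0386, limma adjusted p 0.665). The cathepsins Ctsb, Ctsd and Ctsl, made by most cells, had 84.5 to 255 FPKM and gave no p under 0.05. The median over the 9 genes was 0.12 on CFA3D, -0.01 on CFA6D and -0.15 on CFA6D against CFA3D.

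Of 16 tested transcription regulators, none was called in any comparison. Rfxank, a subunit of the RFX complex, was at 0.31 on CFA3D (unadjusted p 0.0391, limma adjusted p 0.997) and at -0.31 on CFA6D against CFA3D (unadjusted p 0.0417, limma adjusted p 0.665), with 7.51, 8.11 and 7.79 FPKM on CFA3D, 5.22, 6.98 and 6.74 FPKM after saline and 7.04, 5.66 and 6.22 FPKM on CFA6D. Every CFA3D library was above all others. Of all gene sums, 7.01% were higher in all CFA3D than in all saline libraries, and 10.1% were lower in all CFA6D than in all CFA3D libraries. Irf4 was at -0.95 on CFA6D against saline (unadjusted p 0.0103, limma adjusted p 0.272) at levels of 0.083 to 0.396 FPKM. Ifng, the cytokine that induces Ciita, did not exceed 0.146 FPKM and was not tested. Irf1, an interferon-induced activator of Ciita, had no unadjusted p under 0.05 in any comparison and was highest in CFA3D replicate 2, at 12.6 FPKM.

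The class I genes, which serve peptide display to CD8+ T cells on nearly all cells, were measured beside them. None of 10 was called, and their median was 0.21 on CFA3D, 0.22 on CFA6D and -0.01 on CFA6D against CFA3D. The difference between class I and class II medians was not tested. B2m, the class I light chain, was at -0.45 on CFA6D against CFA3D (unadjusted p 0.0257, limma adjusted p 0.642) and -0.09 on CFA6D against saline. H2-K1 measured 40.4, 31.0 and 36.7 FPKM after saline and 31.2, 36.4 and 42.5 FPKM on CFA6D.

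Markers of class II bearing cells were set beside the members. The 12 macrophage markers summed to 128, 109 and 103 FPKM after saline, 115, 158 and 87.5 FPKM on CFA3D, and 63.6, 98.2 and 105 FPKM on CFA6D. CFA3D replicate 2 was the highest of the 9 libraries and CFA3D replicate 3 the lowest of its group, as for class II. This order was not particular to macrophage markers. It also held for the sums of the class I, class II regulator, dendritic cell, T cell and fibroblast lists, and of 5 endothelial markers (20.2 to 36.8 FPKM). All 12 macrophage markers were detected and none was called. On CFA6D against CFA3D, 10 of the 12 had log2 fold changes below 0 and 2 had an unadjusted p under 0.05. These were the complement genes C1qc, at -0.63 (unadjusted p 0.0187, limma adjusted p 0.642), and C1qb, at -0.60 (unadjusted p 0.0497, limma adjusted p 0.670), while C1qa was at -0.53 (unadjusted p 0.0663). Cd68, a lysosomal glycoprotein, and Cd163, a haemoglobin scavenger receptor, were on the other side of 0, at 0.33 and 0.16. On CFA6D against saline 11 of the 12 were below 0 and 1 had an unadjusted p under 0.05, C1qc at -0.50 (unadjusted p 0.0486, limma adjusted p 0.446). The median of the macrophage markers was -0.06 on CFA3D, -0.35 on CFA6D and -0.36 on CFA6D against CFA3D, and the part of these cells in the class II values was not tested. In whole ganglia, fewer cells of a type and less RNA per cell cannot be told apart.

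Markers of neurons, satellite glia and fibroblasts were compared in the same way, and none was called. All 8 neuron markers were above 0 on CFA6D against saline (median 0.20) and 3 had an unadjusted p under 0.05, led by the neuronal splicing factor gene Rbfox3 at 0.67 (unadjusted p 0.000416, limma adjusted p 0.106), with Nefh at 0.34 and Uchl1 at 0.32. All 8 were above 0 on CFA3D against saline too (median 0.20), with none at that p. All 5 satellite glia markers were below 0 on CFA6D against saline (median -0.26) and 1 had an unadjusted p under 0.05, Cadm2 at -0.57 (unadjusted p 0.0295, limma adjusted p 0.386). Of 5 fibroblast markers (median -0.12), the matrix proteoglycan genes Dcn at -0.50 (unadjusted p 0.0323, limma adjusted p 0.399) and Lum at -0.49 (unadjusted p 0.00669, limma adjusted p 0.240) had an unadjusted p under 0.05, and they stood at -0.64 and -0.61 on CFA6D against CFA3D. The part of neurons, glia and fibroblasts in the class II values was not tested.

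The 9 dendritic cell markers summed to 10.8 to 15.2 FPKM with no call among 8 tested. Most of that sum was Flt3, at a mean of 5.12 FPKM over all libraries, and Zbtb46, at 4.26 FPKM. Itgax, Cd209a and Ccr7 averaged 0.31, 0.25 and 0.13 FPKM. Xcr1, a defining marker of cross-presenting dendritic cells, stayed at or below 0.083 FPKM. The part of dendritic cells in this sum was not tested. The 8 B cell markers summed to 1.97 to 3.54 FPKM in 8 libraries and to 8.88 FPKM in CFA6D replicate 6, and no B cell gene was called. In that library Cd74, at 40.9 FPKM, and H2-Ab1, at 23.0 FPKM, were the highest of the CFA6D group and still below the saline mean of 48.0 ± 10.6 FPKM (SD, n = 3) and 25.4 ± 1.97 FPKM. The 7 T cell markers summed to 2.51 to 4.83 FPKM. Of the 7 neutrophil markers, S100a8 was called on CFA6D against saline and 5 on CFA6D against CFA3D, and all 7 were highest in CFA6D replicate 6.

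**Figure D5:**
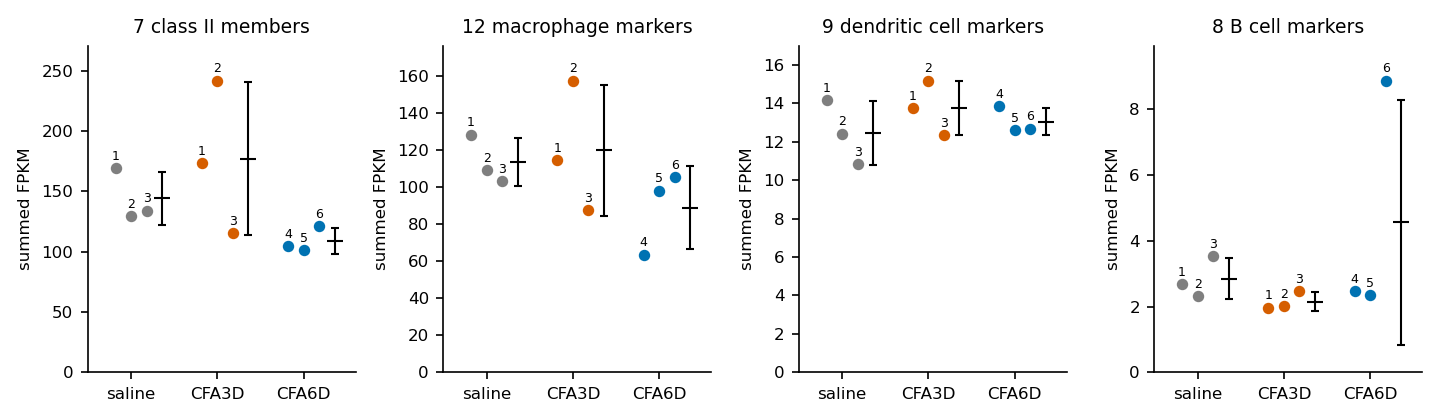
Summed FPKM of the 7 class II members and of the macrophage, dendritic cell and B cell marker lists in each library (points, labelled by replicate), with the mean ± SD of 3 libraries in black. CFA3D replicate 2 is highest for class II, macrophage and dendritic cell markers, and CFA6D replicate 6 stands apart at 8.88 FPKM for B cell markers.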

How the data were processed

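Total RNA of 9 TG libraries was depleted of ribosomal RNA, made into stranded libraries and sequenced in pairs. The authors deposited FPKM per transcript, with replicates kept separate and no counts. Their methods name Trimmomatic, GRCm38 and CLC Genomics Workbench, whereas the submitters' processing notes name Bowtie 0.12.2 and mm8, and the quantifier is not given in the sources used here. Of 102122 mRNA transcripts, 101539 matched GENCODE M21, and FPKM were summed per gene.

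limma 3.58.1 (R 4.3.3) was fitted on log2(FPKM + 0.1) of all 9 libraries, over the 16110 gene sums or 66562 transcripts that averaged 0.1 FPKM or more, with a mean trend and Benjamini-Hochberg adjustment, and was tested on simulated data. Fold changes understate low genes. Each member was named, and from the other lists called genes and up to 4 more. Members and lists were chosen with earlier results of these data known. A protein comparison was not made. Depth comes from FPKM steps and covers counting error only. Libraries are pools, so p-values measure the spread between pools. Saline and CFA3D share replicate numbers, but the correlation of same-numbered deviations was 0.088, -0.078 and 0.030, so they were not treated as pairs.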

Additional observations from a re-analysis of the deposited data

Results flagged for a closer look

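The longer coding Cd74 transcript, ENSMUST00000097563, was the 1 member value that moved opposite ways at both times: each of the 3 CFA3D libraries was above the saline mean and each of the 3 CFA6D libraries was below it. The difference between both responses equals the log2 fold change of -1.14 on CFA6D against CFA3D (unadjusted p 0.000141 and adjusted p 0.307 by limma), so it did not pass the adjustment over all transcripts. No gene sum of the 7 members met this pattern, and how many of all transcripts met it was not counted.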

How the results depend on the processing

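No member gene sum was called under any setting except without CFA3D replicate 3, where 2 were called on CFA6D against CFA3D, so leaving out 1 library gave 0 to 2. With no fold change minimum, 1 member passed on CFA6D against saline and 4 on CFA6D against CFA3D. At that looser criterion, CFA6D against saline gave 2 with quantile normalization, 4 with only the libraries compared, and 0 to 4 with 1 library left out. CFA6D against CFA3D gave 2 with the highest-mean transcript in place of the sum and 1 to 5 with 1 library left out, and CFA3D against saline gave 0 to 5. The replicate block left 0 member gene sums called on CFA3D and gave 2 member transcripts, and changed no other call. Reversed signs were H2-DMa on CFA3D at -0.29 for its highest-mean transcript, and H2-DMb1 on CFA3D at -7.2e-05 after quantile normalization and -0.052 without saline replicate 3 and CFA6D replicate 6 (both libraries left out), a setting chosen after seeing the data. With 1 library left out, log2 fold changes on CFA3D spanned 0 for Cd74 (-0.035 to 0.48), Ciita (-0.085 to 0.39), H2-Ab1 (-0.10 to 0.52), H2-DMb1 (-0.17 to 0.24) and H2-Eb1 (-0.024 to 0.70), for Ciita on CFA6D against saline (-0.21 to 0.020) and on CFA6D against CFA3D (-0.45 to 0.018), and for H2-DMa on CFA6D against CFA3D (-0.098 to 0.13).

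Member transcripts called on CFA3D were 3 with no fold change minimum and 0 with adjusted p, a pseudocount of 1, a mean of at least 1 FPKM, no filter, only the libraries compared or both libraries left out, and 0 to 3 with 1 left out. On CFA6D against saline they were 4 with no fold change minimum, 0 with adjusted p and 1 to 4 with 1 left out. On CFA6D against CFA3D they were 5 with no fold change minimum, 0 with adjusted p or a pseudocount of 1, 1 with both libraries left out and 1 to 6 with 1 left out. Other pathway genes called on CFA3D were 1 with no fold change minimum and 1 with the highest-mean transcript. On CFA6D against saline they were 1 with no fold change minimum, a pseudocount of 0.01 or both libraries left out, and 0 to 1 with 1 left out. On CFA6D against CFA3D they were 4 with no fold change minimum, 0 with adjusted p, a pseudocount of 1, a mean of at least 1 FPKM, quantile normalization or only the libraries compared, and 0 to 1 with 1 left out. Relations with Cd74 past 0.05 were 3 to 5 of 6 with 1 library left out, 3 being without CFA3D replicate 2, and 3 with group means removed, also added after seeing the data. The cause of these differences was not tested. With 3 pools a group and no day 6 saline, changes smaller than the intervals were not detectable.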
